A study of Homo sapiens with 6 samples.

Results

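The genes described here are 10 established targets of the transcriptional coactivators YAP and TAZ: CTGF (also named CCN2), CYR61 (CCN1), ANKRD1, AXL, AJUBA, CRIM1, NT5E, PTPN14, NUAK2 and DOCK5. They were chosen by symbol as known targets, with no threshold on their values but with earlier results of these data known. They make up 10 of the 58336 gene identifiers counted. The RNA came from 12Z, an established line of human endometriotic epithelial cells, with 3 libraries in which SMARCA4 was knocked down (siBRG1) and 3 that received non-targeting siRNA (control). BRG1, the SMARCA4 product, is the motor subunit of SWI/SNF complexes, which move nucleosomes. All 6 libraries came from cells that received 50 nM siRNA, were moved from 10% to 0.5% serum at 48 h and were harvested at 72 h, so low serum is common to both groups. The shared extraction protocol also speaks of drug or vehicle, but no condition label names either.

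YAP and TAZ (the product of WWTR1) do not bind DNA themselves. In the nucleus they bind TEAD factors, which recognise a short DNA element, and switch on genes for matrix proteins, receptors and cytoskeletal regulators. The Hippo pathway holds them back: the kinases MST and LATS phosphorylate YAP and TAZ, which then stay in the cytoplasm. Several of the targets act back on the pathway, and serum, cell density and mechanical tension are known to set YAP and TAZ activity in cultured epithelial cells.

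The promoters show where the members carry the TEAD core GGAATG (both strands searched). RefSeq promoter windows on GRCh38.p14, from 250 bases before the start to 50 after, were matched for CTGF, ANKRD1, AXL, AJUBA, NT5E, PTPN14 and NUAK2, which makes 7 of the 10 genes with 9 windows in all. CYR61, CRIM1 and DOCK5 were not matched. Shown here, because they held more than 1 match each, are CTGF (chr6:131951374-131951622, minus strand), ANKRD1 (chr10:90921277-90921337, minus strand) and NUAK2 (chr1:205321792-205321995, minus strand), each read 5′ to 3′ on the gene's strand and ending just before the GENCODE 29 gene start. Capitals mark GGAATG or its reverse complement.
CTGF: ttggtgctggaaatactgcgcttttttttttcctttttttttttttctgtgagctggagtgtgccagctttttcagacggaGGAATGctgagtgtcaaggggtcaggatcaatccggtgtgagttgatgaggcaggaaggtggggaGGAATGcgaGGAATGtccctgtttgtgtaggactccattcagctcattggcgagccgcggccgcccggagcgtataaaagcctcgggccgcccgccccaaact
ANKRD1: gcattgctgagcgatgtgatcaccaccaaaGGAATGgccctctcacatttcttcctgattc
NUAK2: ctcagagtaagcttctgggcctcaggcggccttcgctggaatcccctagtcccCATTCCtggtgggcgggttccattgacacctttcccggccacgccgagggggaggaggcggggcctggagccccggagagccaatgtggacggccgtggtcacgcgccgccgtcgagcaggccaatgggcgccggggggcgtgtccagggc

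CTGF held 3 TEAD core matches, at 169, 104 and 95 bases before its RefSeq start. Of 35116 RefSeq promoter windows of the same length, 0.128% held at least 3, 1.37% at least 2 and 14% at least 1. ANKRD1 held 2, at 220 and 128 bases, with a match to the AP-1 motif TGANTCA at 195 bases, a motif present in 7.71% of the windows. Its RefSeq start lies 189 bases downstream of the GENCODE 29 start, so the second TEAD match falls inside the annotated first exon and is not printed, and the AP-1 match is cut by that boundary. NUAK2 held 2 matches, at 197 and 18 bases, and the second one lies past its GENCODE 29 start. One match each was found in PTPN14 (200 bases before the start), in the second AXL window (212 bases) and in the second AJUBA window (59 bases), and none in the NT5E window. Matches to these letters are a description of the windows and were not read as bound sites.

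Counts on gene exons ran from 12391161 to 13369692 per siBRG1 library and from 40228678 to 49720320 per control library. Reads mapping to several places made up 18.5% to 21.5% in siBRG1 and 9.57% to 10.0% in control, and reads on no gene feature 3.85% to 4.196% in siBRG1 and 12.8% to 13.6% in control. The labels mark the 3 control libraries, and no siBRG1 library, as reanalysed from an earlier deposit. Deposit and knockdown cannot be told apart for any gene below. Expression is given as CPM, counts scaled to the TMM-normalised library total, and log2FC is the log2 fold change of siBRG1 over control, given with its SE (standard error). Group means are given ± SD over 3 libraries. Adjusted p-values are from edgeR's quasi-likelihood test with Benjamini-Hochberg adjustment over 15830 genes, and an adjusted p under 0.05 counted as a call. The labels do not state whether replicates came from different cultures, and the p-values reflect only library-to-library spread, possibly technical. SMARCA4, the target of the siRNA, had 60.5, 78.9 and 50.6 CPM in the siBRG1 libraries against 244, 266 and 262 CPM in the control libraries (log2FC −2.03 ± 0.161 SE, adjusted p = 0.000267).

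The 10 target genes did not move as one. In siBRG1 8 were called lower, CTGF was called higher, and NUAK2 did not pass. Of all genes tested 36.5% were called lower, 36.1% higher and 72.6% in either direction. ANKRD1, AXL and DOCK5 were lower by at least 2-fold, a size that 11.1% of all genes tested reached in that direction. CPM ranges of the groups did not overlap for 8 of the 10 genes, as for 74.3% of all genes tested. The median log2 fold change was −0.26 over the 10 genes and −0.01 over all genes tested. Summed over the 10 genes, expression stood at 2126 to 2238 CPM in siBRG1 and 3652 to 3784 CPM in control. The difference in that sum rests mainly on AXL, which averaged 563 CPM in siBRG1 and 1559 CPM in control. In bulk RNA, fewer cells of a kind and less RNA per cell cannot be told apart.

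**Figure D1:**
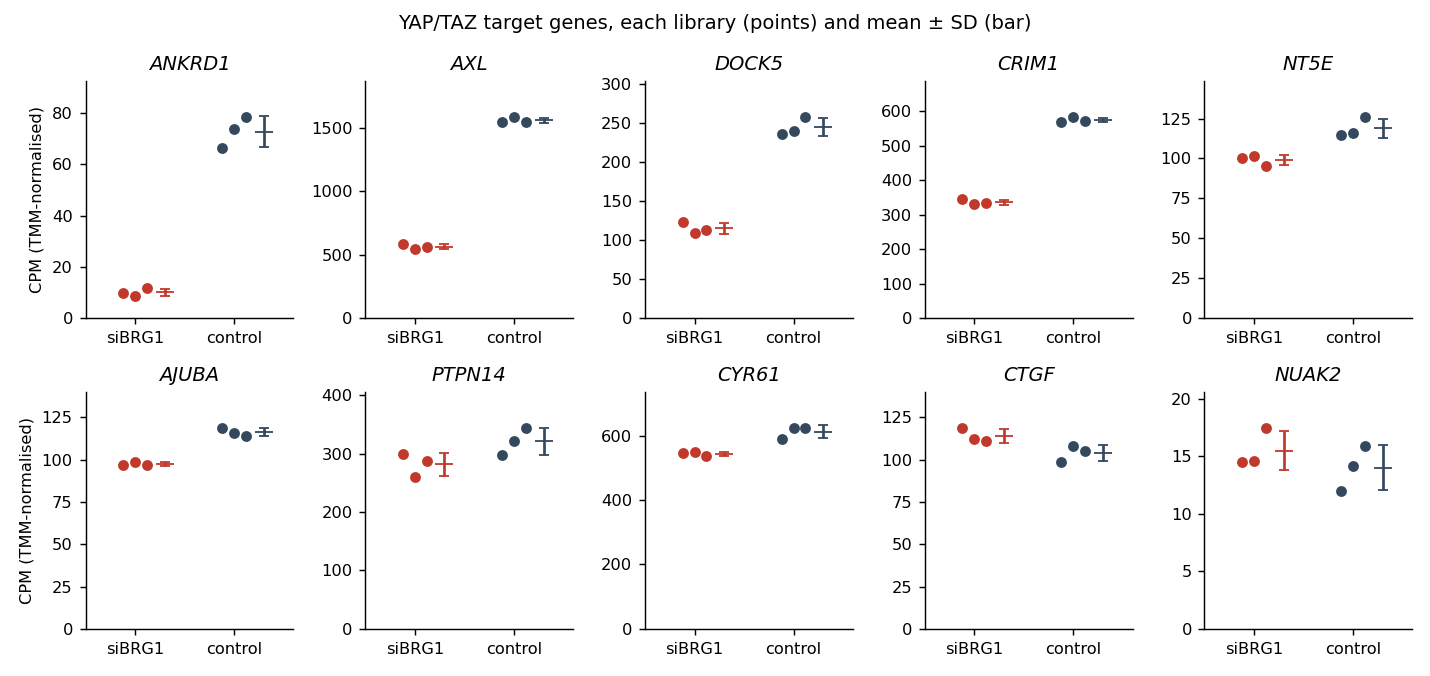
CPM (vertical axis, from 0) of each of the 10 target genes in the 3 siBRG1 and 3 control libraries, with points for libraries and a bar for mean ± SD. ANKRD1, AXL, DOCK5 and CRIM1 are separated widely, with siBRG1 low, while PTPN14 and NUAK2 overlap and CTGF is slightly higher in siBRG1 (114 ± 4.14 against 104 ± 4.64 CPM).

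The secreted targets CTGF and CYR61 encode CCN proteins, which sit in the matrix and bind integrins and growth factors. CTGF (ENSG00000118523.5, chromosome 6, 131948176 to 131951373) had 119, 112 and 111 CPM in siBRG1 libraries 1 to 3 and 99.0, 108 and 105 CPM in control libraries 1 to 3. All siBRG1 values lay above all control values, though the nearest pair, 111 and 108 CPM, is close. The change was small (log2FC 0.13 ± 0.0464 SE, adjusted p = 0.0113), and it stayed positive in all 15 alternatives run, at 0.08 to 0.21. The call was lost in 6 of them, among them the DESeq2 Wald test (adjusted p = 0.0823), omission of siBRG1 replicate 1 (adjusted p = 0.0677) and omission of control replicate 1 (adjusted p = 0.138).

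CTGF also carries an overlap that CYR61 lacks. The antisense gene AL133346.1 shares 195 exonic bases with it on the opposite strand, between 120 and 428 bases from the start. AL133346.1 had a total of 22 raw counts in siBRG1 and 16 in control, not scaled for depth. Each siBRG1 library held 12391161 to 13369692 gene counts, and each control library 40228678 to 49720320. When strand was ignored, 12.6 ± 2.35% of CTGF reads in siBRG1 and 5.78 ± 0.234% in control (SD, n = 3) were no longer assigned to it, and the log2 fold change was then 0.09 (adjusted p = 0.0954). The directional protocol and the strand-specific counts keep the genes apart in the values given above.

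CYR61 (ENSG00000142871.16, chromosome 1, 85580761 to 85583962) had 546, 549 and 536 CPM in siBRG1 against 589.7, 624 and 623 CPM in control. Every siBRG1 library was below every control library, but the difference was small (log2FC −0.17 ± 0.0369 SE, adjusted p = 0.000164). With library totals alone in place of TMM factors it was −0.09 (adjusted p = 0.0222). Within a library, CYR61 gave 4.77 ± 0.158 counts per CTGF count in siBRG1 and 5.89 ± 0.0995 in control (SD, n = 3 each). That ratio was lower in all 3 siBRG1 libraries (two-sided exact permutation p = 0.1, and 3 libraries against 3 allow no smaller p).

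ANKRD1 encodes an ankyrin repeat protein of nucleus and sarcomere, best known as a stress-induced cofactor in heart muscle. The gene (ENSG00000148677.6, chromosome 10, 90912096 to 90921276) had 9.76, 8.78 and 11.7 CPM in siBRG1 and 66.2, 73.5 and 78.3 CPM in control. Levels in siBRG1 were thus far below the lowest control library. The change was 7.21-fold lower, the largest of the 10 (log2FC −2.85 ± 0.0874 SE, adjusted p = 1.43e-21), which put it at percentile 2.53 of all genes tested, counted from the largest fall. Per CTGF count, ANKRD1 gave 0.0885 ± 0.0144 counts in siBRG1 and 0.698 ± 0.0412 in control (exact permutation p = 0.1, the lowest attainable). CTGF, with 3 TEAD core matches, and NUAK2, with 2, were the members not called lower, while ANKRD1, also with 2, had the largest fall. CYR61, CRIM1 and DOCK5 had no matched window, and the relation of matches to change was not tested.

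Of the cell-surface targets, AXL encodes a receptor tyrosine kinase of the TAM family. It (ENSG00000167601.11, chromosome 19, 41219203 to 41261766) had 584, 542 and 563 CPM in siBRG1 and 1547, 1583 and 1548 CPM in control. Both groups were tight and far apart (2.77-fold lower, log2FC −1.47 ± 0.0384 SE, adjusted p = 2.72e-23). AXL gave 1.03 ± 0.0439 counts per CYR61 count in siBRG1 and 2.55 ± 0.0697 in control (SD, n = 3 each; exact two-sided permutation p = 0.1).

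GAS6 and PROS1, ligands of the TAM receptors, moved the other way. GAS6, the main ligand of AXL, stood at 159 ± 9.04 CPM in siBRG1 and 79.3 ± 3.19 CPM in control (log2FC 1.01 ± 0.0470 SE, adjusted p = 2.94e-17). PROS1, which encodes protein S, best known as a ligand of TYRO3 and MERTK, stood at 53.5 ± 3.21 CPM in siBRG1 and 10.97 ± 1.24 CPM in control (log2FC 2.28 ± 0.0792 SE, adjusted p = 2.83e-20). TYRO3 stood at 45.8 ± 5.79 CPM in siBRG1 and 44.5 ± 2.17 CPM in control and did not pass (log2FC 0.04 ± 0.0693 SE, adjusted p = 0.644). MERTK stood at 3.93 ± 0.648 CPM in siBRG1 and 5.26 ± 0.478 CPM in control, and its call (log2FC −0.41, adjusted p = 0.0279) was lost in 6 of 15 alternatives, among them omission of siBRG1 replicate 2 or 3 or control replicate 2 (adjusted p = 0.051, 0.136 and 0.0987).

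NT5E encodes CD73, the surface enzyme that makes adenosine from AMP. It (ENSG00000135318.11, chromosome 6, 85449584 to 85495791) had 101, 102 and 95.2 CPM in siBRG1 and 115, 116 and 126 CPM in control. The siBRG1 libraries lay below the control libraries by a small margin (log2FC −0.26 ± 0.0473 SE, adjusted p = 1.63e-05). Among adenosine genes, the receptor gene ADORA1 averaged 7.57 ± 1.27 CPM in siBRG1 and 2.64 ± 0.280 CPM in control (log2FC 1.51 ± 0.165 SE, adjusted p = 3.48e-09). The nucleoside transporter gene SLC29A2 averaged 7.08 ± 0.646 CPM in siBRG1 and 1.53 ± 0.00931 CPM in control (log2FC 2.20 ± 0.179 SE, adjusted p = 7.35e-12).

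CRIM1 encodes a membrane protein with cysteine-rich repeats that binds bone morphogenetic proteins. The gene (ENSG00000150938.9, chromosome 2, 36355926 to 36551135) had 345, 330.4 and 333 CPM in siBRG1 and 569.8, 583 and 572.5 CPM in control. With 1.71-fold lower expression, it was the fourth in size of change, and the libraries of each group lay close together (log2FC −0.77 ± 0.0365 SE, adjusted p = 3.66e-17). Of the signals it is known to bind, BMP4 stood at 31.8 ± 1.97 CPM in siBRG1 and 42.8 ± 1.84 CPM in control (log2FC −0.43 ± 0.0653 SE, adjusted p = 1.24e-06), a gene named after its values were seen.

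AJUBA and PTPN14 are targets that act on the pathway itself, AJUBA as a LIM-domain scaffold that restrains LATS kinases and PTPN14 as a phosphatase that binds YAP and limits its activity. AJUBA (ENSG00000129474.15, chromosome 14, 22971174 to 22982642) had 96.9, 98.7 and 97.1 CPM in siBRG1 and 119, 116 and 114 CPM in control. The groups did not overlap (log2FC −0.25 ± 0.0437 SE, adjusted p = 8.39e-06). PTPN14 (ENSG00000152104.11, chromosome 1, 214348696 to 214552449) had 299, 259.95 and 287 CPM in siBRG1 and 298, 322 and 344 CPM in control. Here siBRG1 library 1 was above control library 1, so the groups overlapped, although the gene was called (log2FC −0.19 ± 0.0492 SE, adjusted p = 0.00145). The direction turned in 1 alternative: subtracting GC and exon-length effects of each library gave a log2FC of 0.03 (adjusted p = 0.496), and library totals alone in place of TMM factors gave −0.11 (adjusted p = 0.0404).

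NUAK2 encodes a kinase of the AMPK family that acts on the actin cytoskeleton. It (ENSG00000163545.8, chromosome 1, 205302059 to 205321791) had 14.5, 14.6 and 17.5 CPM in siBRG1 and 12.0, 14.2 and 15.9 CPM in control. The groups overlapped and the gene did not pass (log2FC 0.15 ± 0.108 SE, adjusted p = 0.215). NUAK2 had 608 counts in siBRG1 and 1777 in control in total, the fewest of the 10 genes over both groups together (ANKRD1 had fewer in siBRG1, 395), and the largest SE. Its relative NUAK1, named after its values were seen, was lower (log2FC −0.35 ± 0.0514 SE, adjusted p = 7.39e-07).

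DOCK5 encodes an exchange factor that activates the GTPase RAC1. The gene (ENSG00000147459.17, chromosome 8, 25184723 to 25418082) had 123, 109 and 113 CPM in siBRG1 and 236, 239.96 and 257 CPM in control. No siBRG1 library came near the control libraries (2.12-fold lower, log2FC −1.09 ± 0.0463 SE, adjusted p = 3.43e-18). The log2FC was −0.84, under a 2-fold change, with GC and exon-length effects subtracted. RAC1 itself stood at 287 ± 5.54 CPM in siBRG1 and 426 ± 2.996 CPM in control (log2FC −0.57 ± 0.0363 SE, adjusted p = 3.64e-14). Of the other exchange factors, DOCK1 was higher in siBRG1 (log2FC 0.23 ± 0.0414 SE, adjusted p = 2.00e-05, and 0.35 both with unstranded counts and with GC and exon-length effects subtracted). DOCK4 was lower (log2FC −0.36 ± 0.117 SE, adjusted p = 0.00769), a call lost with GC and exon-length effects subtracted (log2FC −0.12, adjusted p = 0.374) and without siBRG1 replicate 2 (log2FC −0.19, adjusted p = 0.122).

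**Figure D2:**
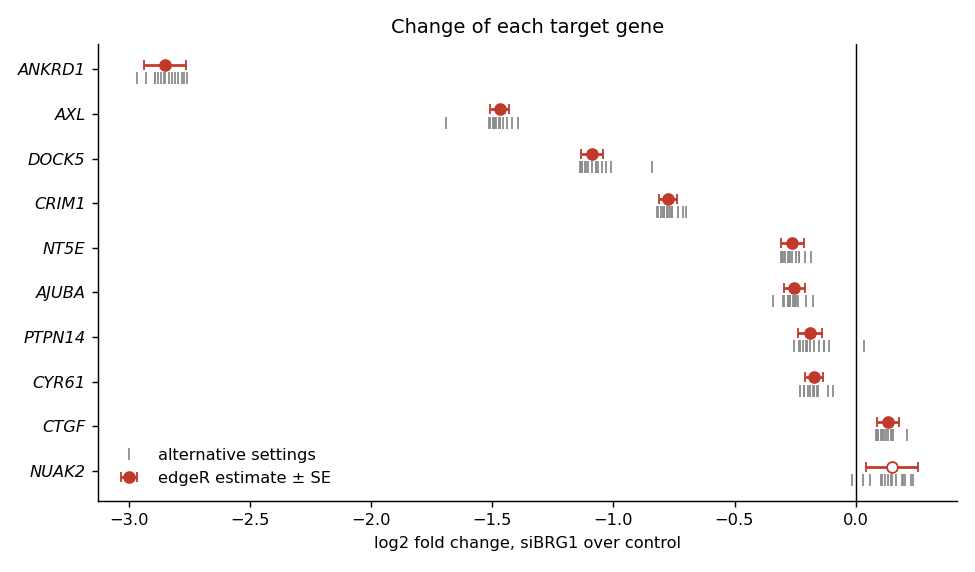
Log2 fold change, siBRG1 over control (horizontal axis), of each target gene with its SE as points and bars (open point, not called), and the 15 alternative settings as grey ticks. ANKRD1 lies at −2.85, AXL at −1.47, DOCK5 at −1.09 and CRIM1 at −0.77, apart from the other 6 genes, which lie between −0.26 and 0.15; ticks of PTPN14 and NUAK2 fall on both sides of 0.

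Levels per exon length changed their order. As CPM per kb of exon, the order in siBRG1 was CYR61 (221.5), AXL (109), CTGF (48.8), CRIM1 (47.2), NT5E (21.9), AJUBA (16.3), PTPN14 (15.0), DOCK5 (7.20), ANKRD1 (5.09) and NUAK2 (4.51). Within siBRG1 CTGF and CRIM1 overlapped between libraries, and so did ANKRD1 and NUAK2. In control the order was AXL (302.5), CYR61 (249), CRIM1 (80.7), CTGF (44.5), ANKRD1 (36.7), NT5E (26.2), AJUBA (19.4), PTPN14 (17.1), DOCK5 (15.3) and NUAK2 (4.07), with overlap between libraries for PTPN14 and DOCK5 alone. AXL was thus above CYR61 in every control library and below it in every siBRG1 library on this scale, and ANKRD1 stood in the ninth place in siBRG1 and the fifth in control.

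**Figure D3:**
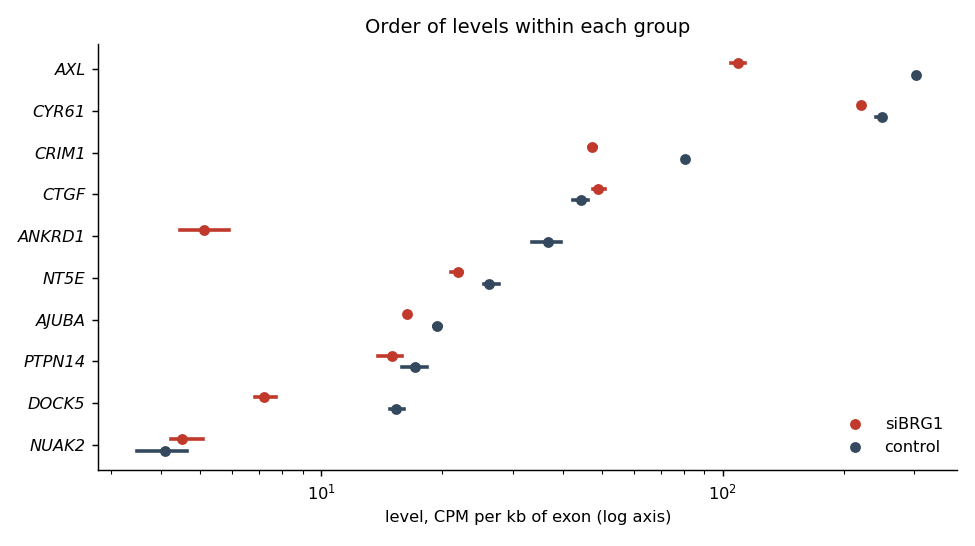
CPM per kb of exon (log axis) of the 10 target genes, with points for group means and lines from the lowest to the highest library, siBRG1 drawn above control. ANKRD1 stands at 5.09 in siBRG1 and 36.7 in control, the widest gap, while CTGF is at 48.8 in siBRG1 and 44.5 in control.

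The make-up of target-gene RNA differed too. Of all counts on the 10 genes, AXL took 25.9 ± 0.340% in siBRG1 and 41.7 ± 0.742% in control (SD, n = 3 each). CYR61 took 24.4%, 25.8% and 24.8% in the siBRG1 libraries and 16.1%, 16.5% and 16.5% in the control libraries, and CTGF 5.24 ± 0.0886% in siBRG1 and 2.78 ± 0.0754% in control. PTPN14, NT5E, AJUBA and NUAK2 also took larger shares in siBRG1, and DOCK5 and ANKRD1 smaller ones, without overlap between the groups (exact two-sided permutation p = 0.1 for each, no smaller p being possible, and 0.111 adjusted over the 10 shares). The share of CRIM1 was 15.4 ± 0.0834% in siBRG1 and 15.4 ± 0.239% in control, with overlapping libraries (exact two-sided permutation p = 0.9). Shares add up to the whole, so they are not independent of one another. CYR61, PTPN14, NT5E and AJUBA took larger shares in siBRG1 although their expression was called lower there.

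**Figure D4:**
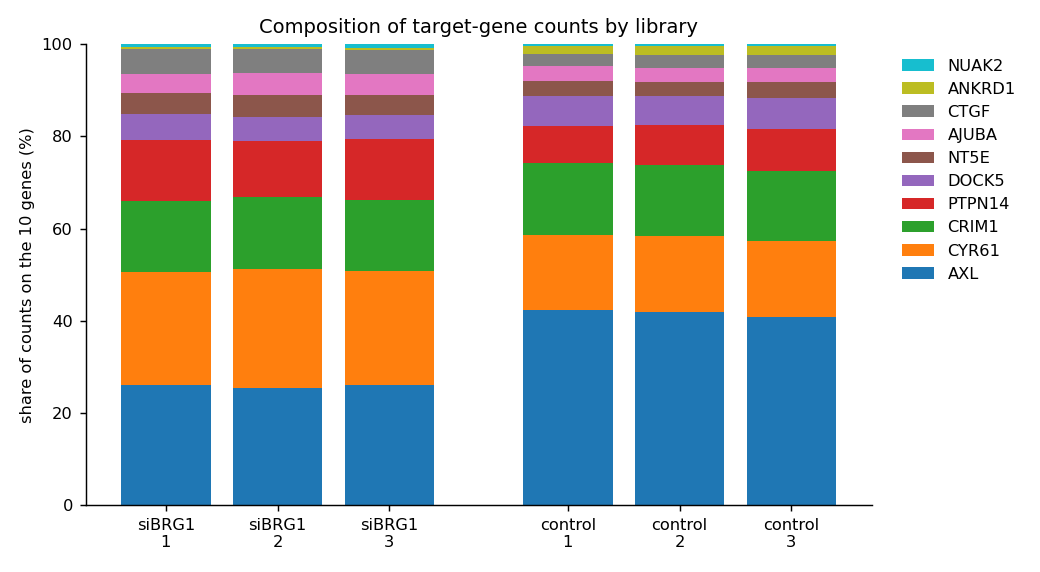
Share of counts on the 10 target genes (%, vertical axis) taken by each gene in each library, stacked, with the 3 siBRG1 libraries left of the 3 control libraries. AXL, at the base, takes 25.9% on average in siBRG1 and 41.7% in control, and libraries within a group look alike.

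The genes of factors known to drive YAP/TAZ targets moved in both directions, with log2FC from −0.45 (TEAD4) to 0.61 (WWTR1). Activity of their products was not measured. YAP1 had 329.5, 280.4 and 322 CPM in siBRG1 and 342, 327 and 330.5 CPM in control. The groups overlapped, since siBRG1 library 1 was above control library 2, and its call (log2FC −0.10 ± 0.0451 SE, adjusted p = 0.0465) was lost in 6 of 15 alternatives, among them unstranded counts (log2FC −0.01, adjusted p = 0.833), omission of siBRG1 replicate 2 (log2FC −0.03, adjusted p = 0.497) and omission of control replicate 1 (log2FC −0.10, adjusted p = 0.1). WWTR1, which encodes TAZ, had 83.6, 91.4 and 92.8 CPM in siBRG1 and 58.9, 61.0 and 55.1 CPM in control. It was higher in every siBRG1 library (log2FC 0.61 ± 0.0534 SE, adjusted p = 3.18e-11). YAP1 gave 3.49 ± 0.438 counts per WWTR1 count in siBRG1 and 5.73 ± 0.327 in control (exact permutation p = 0.1, the lowest attainable).

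Of the DNA-binding partners, TEAD1 fell, with 438 ± 24.1 CPM in siBRG1 and 552 ± 11.4 CPM in control (log2FC −0.33 ± 0.0397 SE, adjusted p = 1.73e-08, and −0.10 with GC and exon-length effects subtracted). TEAD4 also fell (log2FC −0.45 ± 0.0636 SE, adjusted p = 4.26e-07, and −0.67 with those effects subtracted). TEAD2 rose (log2FC 0.40 ± 0.0736 SE, adjusted p = 1.82e-05), by 0.76 with unstranded counts and 0.23 with GC and exon-length effects subtracted. TEAD3 was called higher (log2FC 0.22 ± 0.0779 SE, adjusted p = 0.0116), a call lost in 4 alternatives, namely the DESeq2 Wald test (adjusted p = 0.0733), GC and exon-length effects subtracted (adjusted p = 0.755), and omission of siBRG1 replicate 2 (adjusted p = 0.16) or control replicate 1 (adjusted p = 0.0807). Together with the VGLL cofactors, which compete for TEAD, 9 of 10 such genes could be tested, of which 4 rose, 4 fell and VGLL2 did not pass, beside 36.1% higher and 36.5% lower among all genes tested. VGLL1 had 0 counts in all libraries.

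Most Hippo kinases, scaffolds and upstream regulators are known to restrain YAP and TAZ. Of 21 such genes, all tested, 15 fell, TAOK2, AMOT, AMOTL1 and PTPN21 rose, and STK3 and WTIP did not pass, beside 36.5% lower and 36.1% higher among all genes tested. The list, which was not tested as a whole, had a median log2 fold change of −0.31, and all genes tested −0.01. FRMD6, an upstream activator of the kinases, stood at 158 ± 6.65 CPM in siBRG1 and 443 ± 11.9 CPM in control (log2FC −1.49 ± 0.0406 SE, adjusted p = 7.67e-23). NF2, which encodes the membrane scaffold merlin, stood at 146 ± 6.43 CPM in siBRG1 and 395 ± 12.2 CPM in control (log2FC −1.44 ± 0.0414 SE, adjusted p = 2.79e-22). MOB1B, a cofactor of LATS, fell by 1.20 on the log2 scale (SE 0.0595). AMOTL1, whose product binds YAP at junctions, rose by 0.55 on the same scale (SE 0.0449).

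Beyond the 10 genes, 18 others commonly listed as YAP/TAZ targets were all tested, and 14 fell, CCDC80, ARHGEF17 and AMOTL1 rose, and EDN1 did not pass. Of all genes tested 36.5% were lower and 36.1% higher. The median log2 fold change of the 18 was −0.56, and 5 of them fell by at least 2-fold, beside 11.1% of all genes tested. These counts are a description, with no test of the list. LATS2, AMOTL1 and AMOTL2 are also in the Hippo list above, and TEAD1 is also among the factors, so the lists share genes. F3, which encodes tissue factor, had the largest fall (log2FC −3.05 ± 0.0576 SE), of a like size to that of ANKRD1. IGFBP3, which encodes a carrier of insulin-like growth factors, stood at 13.4 ± 0.793 CPM in siBRG1 and 47.1 ± 1.53 CPM in control (log2FC −1.81 ± 0.0747 SE). TGFB2, a TGF-beta ligand gene, stood at 29.5 ± 2.54 CPM in siBRG1 and 94.3 ± 5.38 CPM in control (log2FC −1.68 ± 0.0634 SE). CCDC80, which encodes a secreted matrix protein, stood at 1283 ± 22.6 CPM in siBRG1 and 701 ± 2.48 CPM in control (log2FC 0.87 ± 0.0359 SE).

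**Figure D5:**
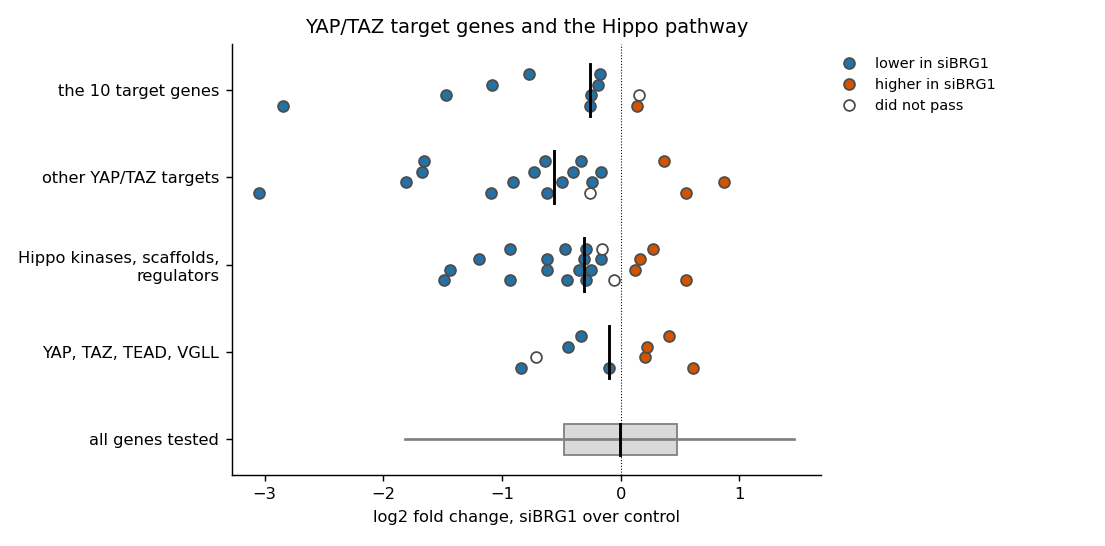
Log2 fold change, siBRG1 over control (horizontal axis), of each tested gene of the 4 lists (blue, lower; orange, higher; open, did not pass), with black lines for medians and, for all genes tested, a box from the first to the third quartile and a line from the 5th to the 95th percentile. Medians stand at −0.26 for the 10 target genes, −0.56 for the other targets, −0.31 for the Hippo list, −0.10 for YAP, TAZ, TEAD and VGLL, and −0.01 for all genes tested. Of the other targets, LATS2, AMOTL1 and AMOTL2 are drawn again in the Hippo list, and TEAD1 in the row of YAP, TAZ, TEAD and VGLL.

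Of 16 close relatives of the members 13 could be tested, and 5 fell, 3 rose and 5 did not pass (median log2 fold change −0.35). The share that fell was near the 36.5% of all genes tested. LIMD1, WTIP and PTPN21 are in this list and in the Hippo list. NOV, the CCN family member CCN3, stood at 14.1 ± 2.62 CPM in siBRG1 and 36.7 ± 3.03 CPM in control (log2FC −1.38 ± 0.0945 SE, adjusted p = 1.75e-13). The CCN genes CTGF, CYR61 and NOV thus had log2FC values of 0.13, −0.17 and −1.38. Of 27 ligands, receptors and other partners of the members 22 were tested, and 13 rose, 7 fell and 2 did not pass (median log2 fold change 0.44), beside 36.1% higher and 36.5% lower among all genes tested. No list was tested as a whole.

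Markers of cell types were read beside these values, and beside the 36.1% called higher and 36.5% called lower among all genes tested. Of 8 simple epithelium markers, all tested, 4 rose and 2 fell, and their summed level was 3483 to 3738 CPM in siBRG1 and 3940 to 4026 CPM in control. That sum rests on KRT8, KRT18 and KRT19. KRT7 fell most, with 36.9 ± 4.50 CPM in siBRG1 and 196 ± 9.10 CPM in control (log2FC −2.40 ± 0.0602 SE, adjusted p = 9.51e-24), and KRT19 was the other marker that fell. The epithelial adhesion genes EPCAM (1.61 ± 0.264 CPM in siBRG1 and 0.251 ± 0.0889 CPM in control) and CDH1 (5.87 ± 1.35 CPM in siBRG1 and 3.05 ± 0.553 CPM in control) were low in both groups. Both were among the 4 that rose, with log2FC 2.63 (EPCAM) and 0.93 (CDH1). CLDN4 (log2FC 1.28) and KRT8 (log2FC 0.09, adjusted p = 0.0318) also rose, and KRT18 and MUC1 did not pass. Of 8 stromal fibroblast markers, all tested, 7 rose and THY1 fell, and the sum, carried mainly by COL1A1 and COL3A1, was 4757 to 5081 CPM in siBRG1 and 2632 to 2818 CPM in control. The part of these markers in the target-gene differences was not tested. Endothelial markers summed to 15.1 to 21.4 CPM in siBRG1 and 17.4 to 20.1 CPM in control with 3 of 6 tested, of which CDH5 rose, VWF fell and KDR did not pass, and EMCN had 0 counts. Immune markers summed to 10.2 to 10.4 CPM in siBRG1 and 4.28 to 5.79 CPM in control, nearly all from CD14, the only one of 2 tested that rose, and CD3E had 0 counts.

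The authors' deposited table, made with DESeq2, gave the same sign as here for all 10 target genes. By the authors' deposited table, 9 of the 10 had an adjusted p under 0.05, and 8 with their IHW weighting. The share of all genes called in the authors' deposited table was not computed. In the fit reported here 72.6% of all genes tested were called. CTGF was the gene that differed between these forms, with log2FC 0.11 and adjusted p = 0.0311, or 0.137 with IHW, in the authors' deposited table.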

How the data were processed

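RNA of 6 libraries of 12Z cells, 3 siBRG1 and 3 control, was analysed. The authors deposited raw counts per gene in the layout of STAR, with unstranded and strand-specific columns. Tools listed in the submitters' processing notes, with no version, are STAR, cutadapt, FastQC, Trim Galore and DESeq2, on build GRCh38.p12 (annotation: not given in the sources used here). GENCODE 29 held 58216 of the 58336 identifiers with the version ignored, and gave symbols and GRCh38 coordinates. The authors' table of their own comparison holds, per the file headers, a mean signal, a log2 fold change, a test score, and p-values with adjusted forms. It is quoted only where named.

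The strand-specific column with the larger total was taken as sense. Its gene rows were compared in edgeR 4.0.16 (R 4.3.3) with TMM, filterByExpr and a robust quasi-likelihood fit on the group, two-sided, with Benjamini-Hochberg adjustment. Depth, 12391161 to 49720320 counts per library, limits the precision of genes with few counts. Replicates differed by more than sampling noise, so none were merged. Within-library ratios and shares were compared by exact two-sided permutation (4 ratios, adjusted p = 0.1 for each). No pairing was used, because the labels do not say that a replicate number marks a shared culture or day. Same-numbered libraries did not vary together (r = −0.0126, 0.022 and 0.00898), nor did differently numbered ones (r from −0.027 to 0.0173). Such values over all genes cannot exclude a pairing. The fit was first run on simulated counts in which few genes changed, equally up and down. In these data 72.6% of all genes tested were called, so that run cannot show how the fit behaves here.

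The 10 target genes, the gene lists and the rule for named genes were chosen with earlier results of these data known. The rule took the 10 genes, SMARCA4, YAP1, WWTR1, TEAD1 to TEAD4, GAS6, PROS1 and, per list, up to 4 called genes averaging at least 50 counts, the largest rise and fall first. CPM per kb uses exon length in GENCODE 29. Alternatives were DESeq2 1.42.0 (size factors; Wald test), no count filter, at least 50 counts in 3 libraries, unstranded counts, protein-coding genes alone, GC and exon-length effects subtracted (mgcv 1.9.3), a replicate block, omission of each library and, added after the data were seen, library totals alone.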

Additional observations from a re-analysis of the deposited data

Results flagged for a closer look

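On the strand opposite to CTGF, counts stood at 21.1 ± 5.34 CPM of all antisense gene counts in siBRG1 (16.6 to 27.0 over 3 libraries) and 6.88 ± 0.990 CPM in control (6.04 to 7.97). This signal lies in a count column that the comparisons above do not use, and it was above the control level in every siBRG1 library. It amounted to 1.15 ± 0.321% of CTGF counts on both strands in siBRG1 and 0.446 ± 0.0832% of them in control, or 13 to 22 antisense counts per siBRG1 library and 16 to 26 per control library. Its relation to the antisense gene AL133346.1 was not tested. The 10 target genes were searched for antisense rises alone, and CTGF was the gene flagged. For AXL, AJUBA, ANKRD1 and NUAK2, antisense CPM was lower in every siBRG1 library than in any control library. AXL, for example, had 38.5 to 61.4 in siBRG1 and 72.4 to 90.7 in control. The share of all genes with antisense ranges that did not overlap was not computed.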

How the results depend on the processing

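Over 15 alternatives and 34 named genes, 484 of 510 recomputed log2 fold changes kept direction and call, 24 lost the call and 2 turned direction, and 27 genes kept both throughout. The 2 that turned were PTPN14 and NUAK2 with GC and exon-length effects subtracted, at 0.0326 (adjusted p = 0.496) and −0.0151 (adjusted p = 0.908); the cause was not tested. The count of target genes called higher, CTGF alone, was 0 with the DESeq2 Wald test, with no count filter, with unstranded counts and with protein-coding genes alone, and 0 to 1 when each library was left out, with 0 without siBRG1 replicate 1 and without control replicate 1. Its log2 fold change was then 0.08 to 0.11, and the cause was not tested. The count called lower stayed at 8 in 14 alternatives and was 7 with GC and exon-length effects subtracted, where the count lower by at least 2-fold was 2 in place of 3. Genes called in all came to 11498 in the fit reported and 9698 to 12541 in the alternatives. With the replicate number as a replicate block it was 11194, the 10 genes kept their calls, and CTGF had adjusted p = 0.0137; same-numbered libraries were not shown to be paired. No count filter moved the median of all genes to −0.30, over 30426 genes. Counting depth limits genes with few counts, such as NUAK2 (608 in siBRG1 and 1777 in control).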

Other observations

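Among the ligands, receptors and partners of the target genes, the genes below were named after their values were seen. Of 3 integrin subunit genes listed, whose products bind CCN proteins, ITGB5 averaged 162 ± 4.88 CPM in siBRG1 and 86.3 ± 2.03 CPM in control (SD over 3 libraries, log2FC 0.91 ± 0.0429 SE, adjusted p = 3.38e-17), and ITGAV and ITGB3 had log2FC values of 0.25 and 0.40. LRP1, which encodes an endocytic receptor that binds CTGF, averaged 220.5 ± 25.3 CPM in siBRG1 and 89.98 ± 8.34 CPM in control (log2FC 1.30 ± 0.1004 SE, adjusted p = 1.28e-05). Of 5 bone morphogenetic protein ligand and receptor genes listed, BMP2, BMP4, BMPR1A and BMPR2 had log2FC values of −0.57, −0.43, −0.49 and −0.50 (largest adjusted p = 0.00595, for BMP2), and BMP7, with 3 counts in siBRG1 and 19 in control, was not tested.

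Around NT5E, genes that handle or sense adenosine moved both ways. ADORA2B, an adenosine receptor gene, and ADA, which encodes the deaminase that removes adenosine, rose by 0.44 and 0.67 on the log2 scale, and DPP4, whose product anchors that deaminase at the cell surface, by 0.87. ADK, the adenosine kinase gene, and SLC29A1, a transporter gene, fell by 0.20 and 0.15 (adjusted p = 0.000565 and 0.0117). STK11, which encodes LKB1, the kinase that activates NUAK2, averaged 100.5 ± 0.375 CPM in siBRG1 and 62.2 ± 2.26 CPM in control (log2FC 0.69 ± 0.0477 SE, adjusted p = 1.90e-13). The alternatives were not run for the genes of these paragraphs, and deposit and knockdown cannot be told apart for them either.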
